A study of Mus musculus with 20 samples.

Results

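Whole hearts of mouse fetuses exposed in the womb to 6 µg/kg TCDD were compared with hearts exposed to 3 µg/kg. TCDD is 2,3,7,8-tetrachlorodibenzo-p-dioxin, the most studied ligand of the aryl hydrocarbon receptor. The comparison rests on the 4 arrays titled 6 µg/kg and the 4 arrays titled 3 or 3.0 µg/kg, which are 8 of the 20 arrays of a dose series. The hearts at 6 µg/kg (4 arrays), 3 µg/kg (4 arrays) and 1.5 µg/kg (4 arrays) came from mothers given TCDD by mouth on day 14.5 of gestation, and the controls (8 arrays) from mothers given the corn oil vehicle. Hearts were taken on day 17.5 in all groups. The labels give neither strain nor genotype, maternal age, fetal sex or litter, and do not say whether an array held 1 heart or a pool. The p-values therefore measure only the spread between these arrays, which may be partly technical.

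Each array measured 12422 mouse probe sets beside 66 control probe sets of the maker. The values are MAS5 signals, a brightness per probe set on a linear scale, and their medians were 171 to 210.0 per array over the 20 arrays. Signals were scaled to a common trimmed mean and compared as log2(signal + 32), so the log2 differences of dim genes understate the change in signal. A probe set was kept when at least 4 of the 20 arrays reached their own 40th percentile, which left 8097 probe sets for 6099 named genes. The defining cardiomyocyte genes Myh6, Myh7, Actc1, Tnnt2, Tnni3, Myl2, Myl7, Nppa and Ryr2 lay between the 95.6th and the 99.98th percentile of signal, so the labelled tissue was heart by its markers. Correlations of log2 signals ran between 0.951 and 0.974 for pairs of arrays across the doses, against 0.942 to 0.977 among the arrays at 6 µg/kg and 0.961 to 0.981 among those at 3 µg/kg.

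The aryl hydrocarbon receptor, encoded by Ahr, waits in the cytoplasm in a complex with heat shock protein 90. When a ligand binds, it enters the nucleus, pairs with the protein encoded by Arnt and binds DNA elements whose shared core reads GCGTG. Its best known targets are the cytochrome P450 genes Cyp1a1 and Cyp1b1, whose products oxidise aromatic ligands, and Ahrr, whose product competes with the receptor for Arnt and damps the response. TCDD resists breakdown, so the receptor stays engaged for days, and the fetal heart is a known site of TCDD toxicity.

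The windows just before the start sites of these 3 targets are shown because they hold the letters of the core. These targets also give the comparison its measure of receptor activity. Whether the receptor binds at the copies marked here was not tested. Sequences are from RefSeq for build GRCm38.p6, read 5′ to 3′ on the gene's strand, with the core in capitals (GCGTG, or CACGC where it lies on the opposite strand). The Cyp1a1 window is chr9:57697499-57697593 on the plus strand, the Cyp1b1 window is chr17:79715103-79715197 on the minus strand, and the Ahrr window is chr13:74292332-74292498 on the minus strand.
Cyp1a1: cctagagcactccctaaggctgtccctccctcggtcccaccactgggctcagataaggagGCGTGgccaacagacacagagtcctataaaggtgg
Cyp1b1: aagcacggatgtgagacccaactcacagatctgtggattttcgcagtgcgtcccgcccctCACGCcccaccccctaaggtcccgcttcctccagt
Ahrr: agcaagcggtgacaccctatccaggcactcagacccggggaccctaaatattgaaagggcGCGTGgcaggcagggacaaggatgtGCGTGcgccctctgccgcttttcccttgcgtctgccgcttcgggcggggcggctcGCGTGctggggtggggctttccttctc
The core starts 54 bases before the start site in Cyp1a1 and 76 bases before it in Cyp1b1. In Ahrr it occurs 3 times, at 107, 82 and 27 bases. Searched on both strands, the core was present in 28.2% of all 32851 RefSeq windows of 250 bases before a start site, so a match by itself is common.

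Cyp1a1 averaged 506.6 ± 149.8 in hearts at 6 µg/kg, 275.0 ± 90.3 in hearts at 3 µg/kg (SD, n = 4 each) and 39.6 ± 23.0 in controls (SD, n = 8). Its signals were 333.1, 456.4, 688.1 and 548.7 at 6 µg/kg, against 269.9, 404.2, 217.7 and 208.3 at 3 µg/kg. The lowest array at 6 µg/kg lay under the highest at 3 µg/kg, so the doses overlapped, while all 8 exposed arrays lay above the highest control (70.6). The log2 difference between the doses was 0.81 (SE 0.33) and did not pass (limma adjusted p = 0.343). A second, dimmer Cyp1a1 probe set differed by 0.61 (adjusted p = 0.451).

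Cyp1b1 signals were 357.4, 505.5, 384.0 and 441.0 in hearts at 6 µg/kg, against 226.5, 377.0, 259.1 and 231.7 at 3 µg/kg. The 8 controls ran from 45.9 to 112.2, below every exposed array. Array 2 at 3 µg/kg reached into the range of the higher dose, and the other 3 arrays of its group stayed under it. The log2 difference was 0.59 (SE 0.19; limma adjusted p = 0.248). Set side by side, Cyp1b1 was 2.04 log2 units above controls at 6 µg/kg and 1.45 above them at 3 µg/kg, and Cyp1a1 was 2.93 and 2.12 above them. Both doses are measured against the same 8 controls, so these pairs are not independent.

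Ahrr, which was too dim to be kept, was the target whose doses did not overlap. Its signals were 148.5, 164.9, 110.7 and 130.7 at 6 µg/kg, against 105.0, 75.2, 70.4 and 58.9 at 3 µg/kg. The 4 arrays at the higher dose all lay above the 4 at the lower dose, and above the highest of the 8 controls (82.1). Array 1 at 3 µg/kg (105.0) also lay above that control. The log2 difference was 0.65, with an exact permutation p of 0.0286, the smallest that 70 splits of 4 against 4 allow, and 0.143 after adjustment over the 5 dim probe sets tested in this way. Cyp1a2, a related P450 expressed mainly in liver, was dimmer still (56.5 ± 24.5 at 6 µg/kg and 43.9 ± 19.4 at 3 µg/kg, SD, n = 4 each; exact permutation p = 0.457).

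**Figure D1:**
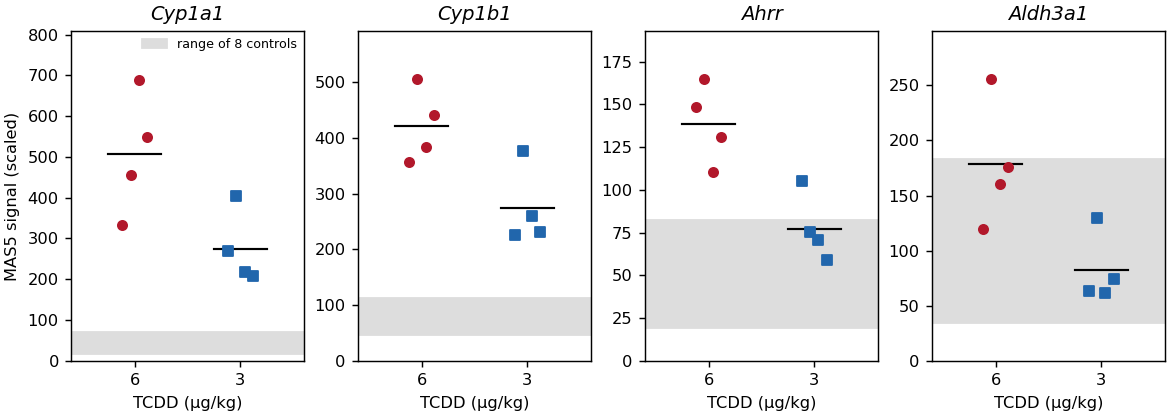
MAS5 signal of Cyp1a1, Cyp1b1, Ahrr and Aldh3a1 (vertical axes, scaled signal) in the 4 arrays at 6 µg/kg (red circles) and the 4 at 3 µg/kg (blue squares), with a black line at each mean and a grey band over the range of the 8 controls. Cyp1a1 and Cyp1b1 lie above the control band at both doses. Ahrr lies above it in all 4 arrays at 6 µg/kg and in array 1 at 3 µg/kg (105.0). The 2 doses overlap for every gene shown except Ahrr.

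Of 10 kept genes on the list of receptor targets, 6 were higher and 4 lower at 6 than at 3 µg/kg, with a median log2 difference of 0.05 against -0.01 over all 6099 kept genes. None passed, and in none were the doses free of overlap. Aldh3a1, an aldehyde dehydrogenase of the same gene battery, averaged 178.2 ± 57.0 at 6 µg/kg, 82.2 ± 32.3 at 3 µg/kg (SD, n = 4 each) and 123.7 ± 43.4 in controls (SD, n = 8). Its log2 difference was 0.88 (SE 0.30; limma adjusted p = 0.255), with the controls between the doses. The quinone reductase gene Nqo1 differed by 0.07 and 0.01 on its 2 probe sets, values that turn to -0.03 and -0.07 under quantile normalization. Tiparp, which encodes an ADP-ribosyltransferase that restrains the receptor, differed by -0.04 (SE 0.27).

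Of the receptor complex, Ahr itself was dim, at 73.7 ± 25.6 at 6 µg/kg and 106.1 ± 40.4 at 3 µg/kg (SD, n = 4 each; log2 difference -0.38, limma adjusted p = 0.600). Arnt differed by -0.04 (SE 0.16). Hsp90aa1, the inducible heat shock protein 90 of the resting complex, was at 6572.9 to 8003.3 at 6 µg/kg and 5683.0 to 6433.7 at 3 µg/kg. Its doses did not overlap, although the difference of 0.24 did not pass (adjusted p = 0.403).

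Over the whole array few probe sets passed between the doses. Of the 8097 kept probe sets, 3 passed an adjusted p of 0.05 in limma (0.0371%), all of them lower at 6 than at 3 µg/kg. The background is wider at looser rules. At an unadjusted p under 0.05 there were 943 probe sets (11.6%), of which 440 were higher (5.43%) and 503 lower (6.21%), where 405 would be past it if nothing differed. In 290 probe sets (3.58%) all 4 arrays at 6 µg/kg lay above the 4 at 3 µg/kg, and in 334 (4.12%) all lay below, 7.71% together. The log2 difference was within 0.5 of 0 for 94.2% of the probe sets and beyond 1 in either direction for 50.

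**Figure D2:**
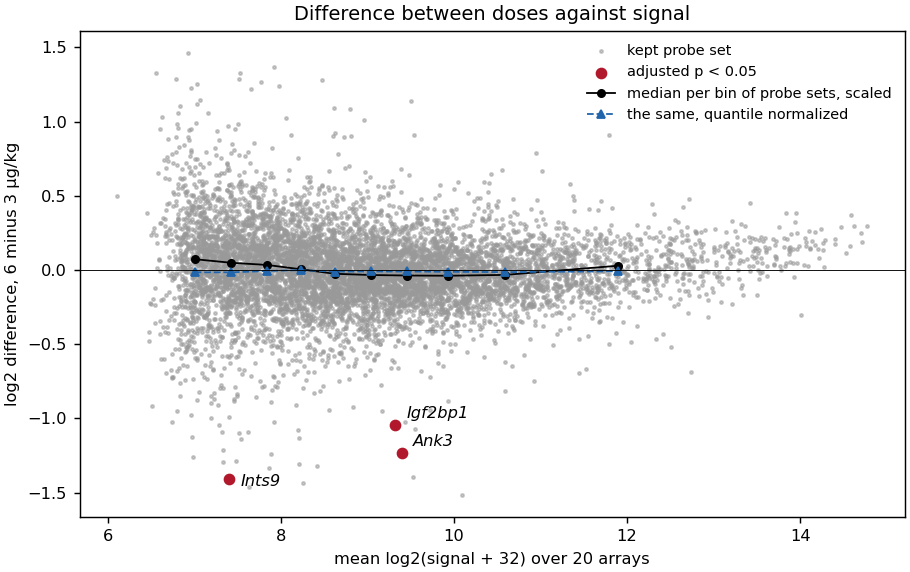
Log2 difference of 6 minus 3 µg/kg (vertical axis) against the mean log2(signal + 32) over the 20 arrays (horizontal axis) for the 8097 kept probe sets (grey points), with the 3 that passed in red. Lines join the medians of 10 bins of probe sets ordered by signal, in black as scaled and in blue after quantile normalization. The scaled medians run from 0.07 in the dimmest bin to -0.04 in the upper middle and 0.03 in the brightest, and the quantile normalized ones stay within 0.02 of 0.

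The 3 genes that fell were Ank3, Igf2bp1 and Ints9, each with an adjusted p of 0.0282. Ank3, on chromosome 10, encodes ankyrin-G, an adaptor that anchors membrane proteins such as sodium channels to the spectrin skeleton. Its signals were 376.9, 325.0, 364.6 and 456.7 at 6 µg/kg, against 828.9, 1198.2, 920.1 and 826.4 at 3 µg/kg, and the 8 controls ran from 346.8 to 903.5 with a median of 611.5. The doses were far apart, but controls spanned most of the distance between them. The log2 difference was -1.23 (SE 0.21). A second Ank3 probe set was level between the doses, at 923.9 and 949.4, with a log2 difference of -0.03 (limma adjusted p = 0.960), so the 2 probe sets disagreed.

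Igf2bp1, on chromosome 11, encodes an RNA-binding protein of embryonic tissues that binds Igf2 and Myc messages. Its signals were 380.8, 412.1, 303.2 and 415.2 at 6 µg/kg, against 864.4, 883.0, 754.7 and 741.0 at 3 µg/kg. No array of either dose came near the other dose, and the controls filled the gap, from 385.3 to 800.9. The log2 difference was -1.05 (SE 0.18).

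Ints9, on chromosome 14, encodes a subunit of Integrator, the complex that cleaves nascent small nuclear RNAs. It was dim, at 101.2, 57.1, 25.2 and 28.7 at 6 µg/kg and 219.4, 203.7, 168.7 and 140.0 at 3 µg/kg, with controls from 105.6 to 254.8. Here the lower-dose arrays lay inside the control range and the higher-dose arrays below it. The log2 difference between the doses was -1.41 (SE 0.25). Against controls it was -1.22 at 6 µg/kg (limma adjusted p = 0.0166, in a comparison where 0.0741% of probe sets passed) and 0.19 at 3 µg/kg (adjusted p = 0.961, where 0.0247% passed).

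These 3 calls rest on few arrays. Leaving out array 2 or 3 at 6 µg/kg, or any of the 4 arrays at 3 µg/kg, left 0 calls, with smallest adjusted p-values from 0.0547 (without array 4 at 3 µg/kg) to 0.196 (without array 3 at 6 µg/kg). Without array 1 at 6 µg/kg only Ints9 passed, and without array 4 at 6 µg/kg 6 probe sets passed, Ank3 and Igf2bp1 among them. The direction of all 3 was the same in every one of these fits, and the log2 differences ranged from -1.65 to -1.25 for Ints9, -1.32 to -1.12 for Ank3 and -1.09 to -0.95 for Igf2bp1. Klf5, a zinc finger transcription factor, lay just outside the threshold (adjusted p = 0.0512). Its signals were 95.7, 96.6, 93.8 and 92.4 at 6 µg/kg, against 176.0, 334.6, 251.1 and 249.8 at 3 µg/kg, with controls from 99.5 to 223.2. The 4 higher-dose arrays lay within a few units of each other, below every control.

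**Figure D3:**
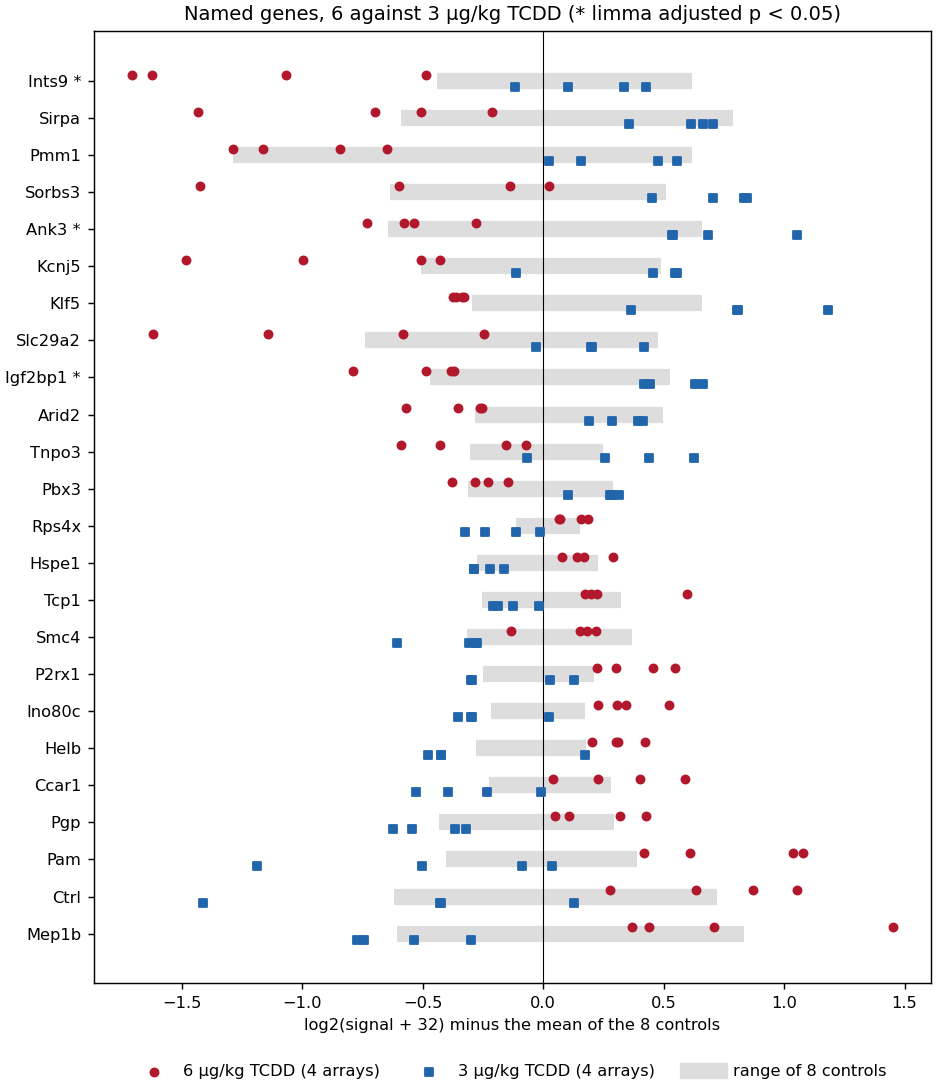
Log2(signal + 32) of the 12 genes lower and the 12 genes higher at 6 than at 3 µg/kg with the smallest p-values, each as the difference from the mean of the 8 controls (horizontal axis), for the 4 arrays at 6 µg/kg (red circles) and the 4 at 3 µg/kg (blue squares), with the range of the controls in grey. In all 24 genes the doses lie apart and the control mean (0) lies between the mean of the higher dose and the mean of the lower.

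The remaining genes with the smallest p-values did not pass (limma adjusted p from 0.149 to 0.176) and are given by their values. Choosing them by p fixes that their doses lie apart, so that separation is no result. Among the 9 others on the lower side, Kcnj5, a subunit of the potassium channel that acetylcholine opens in the atria, had signals of 96.0, 89.0, 54.3 and 29.7 at 6 µg/kg, against 219.4, 127.0, 220.8 and 204.1 at 3 µg/kg. Sirpa, the receptor on myeloid cells for the CD47 signal, had 103.0, 25.9, 78.1 and 64.4 at 6 µg/kg, against 215.6, 167.9, 222.6 and 207.1 at 3 µg/kg. Its other kept probe sets differed by -0.38 and -0.33, less than the -1.30 of this probe set. Sorbs3, which encodes the focal adhesion adaptor vinexin, differed by -1.24. Pmm1, a phosphomannomutase, differed by -1.29, and the nucleoside transporter gene Slc29a2 by -1.10.

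Brighter genes on the lower side differed less. Arid2, a subunit of a chromatin remodelling complex of the SWI/SNF family, had 599.7, 557.6, 476.6 and 597.3 at 6 µg/kg, against 958.8, 973.4, 888.0 and 828.2 at 3 µg/kg (log2 difference -0.68, SE 0.16). Pbx3, a homeodomain cofactor, differed by -0.51 (SE 0.12), and its 2 other probe sets differed by -0.41 and -0.48. All 3 Pbx3 probe sets were thus lower at the higher dose by similar amounts. Tnpo3, which imports splicing factors into the nucleus, differed by -0.63, and the highest of its arrays at 6 µg/kg (772.9) almost met the lowest at 3 µg/kg (773.2).

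On the higher side, Pam, the enzyme that amidates the ends of secreted peptides, had 244.0, 283.2, 404.4 and 391.4 at 6 µg/kg, against 179.9, 113.9, 58.6 and 162.6 at 3 µg/kg (log2 difference 1.22, SE 0.26). All its higher-dose arrays were above the highest control (238.8). Mep1b, which encodes the metalloprotease meprin β, had 97.5, 229.0, 124.3 and 91.2 at 6 µg/kg, against 33.9, 24.0, 25.1 and 45.6 at 3 µg/kg. It was dim at both doses. Ctrl, a chymotrypsin-like protease of the pancreas, differed by 1.24.

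The other genes on the higher side differed by smaller amounts. Smc4, a condensin subunit needed to compact mitotic chromosomes, had 3158.8, 3227.9, 3315.8 and 2587.9 at 6 µg/kg, against 2292.0, 2342.5, 2337.7 and 1855.7 at 3 µg/kg (log2 difference 0.47, SE 0.12). Array 4 was the lowest of its group at both doses. Hspe1, the lid of the mitochondrial chaperonin, had 3339.9 to 3866.4 at 6 µg/kg, against 2584.5 to 2818.5 at 3 µg/kg (log2 difference 0.41, SE 0.10). Tcp1, a subunit of the cytosolic chaperonin, differed by 0.43, Ccar1, a transcriptional coactivator, by 0.61, Ino80c, a subunit of the INO80 remodelling complex, by 0.58, and the DNA helicase gene Helb by 0.60. Second kept probe sets differed less, by 0.27 for Ccar1 and 0.10 for Helb, the Helb one being the brighter. Pgp, a phosphatase that clears side products of glycolysis, differed by 0.69, the ATP-gated channel gene P2rx1 by 0.49 and the X-linked ribosomal protein gene Rps4x by 0.29. A second kept Rps4x probe set was dim, at 70.4 and 63.0, and differed by 0.07 (limma adjusted p = 0.959).

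The position of the other groups was not used in choosing these 24 genes, apart from the shared estimate of spread. In all 24 the control mean lay between the means of the 2 doses, against 45.0% of all kept probe sets, and among the probe sets with no overlap it lay between them in 247 of 290 higher ones and 288 of 334 lower ones. The control mean was nearer to the mean at 3 than to that at 6 µg/kg in 15 of the 24 genes (62.5%), close to the 56.0% of all kept probe sets. The mean at 1.5 µg/kg was nearer to that at 3 than to that at 6 µg/kg in 22 of the 24 genes (91.7%), against 66.1% of all kept probe sets. For the 12 lower genes this held in all 12, and for the 12 higher in 10. Among the probe sets with no overlap it held in 305 of 334 lower ones (91.3%) and 222 of 290 higher ones (76.6%). Igf2bp1 is an example, with 1029.5, 951.0, 718.7 and 962.3 at 1.5 µg/kg, 3 of them above every array at 3 µg/kg. Choosing genes for a wide gap favours other groups lying inside it, and these shares were not tested.

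Promoter windows were at hand for 13 of these 24 genes, and 7 of the 13 held the receptor's core within 250 bases. They were Pmm1, Slc29a2, Tnpo3, Pam, Hspe1, Helb and Tcp1. This counts a gene with a match in any of its windows. The share of 28.2% given above counts single windows, so the count and the share are unlike measures. A match is a description of the letters only.

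The gene lists gave no further calls, and the smallest adjusted p on any of the 42 lists was 0.149, for Kcnj5. They are described by counts and medians, beside 2906 of 6099 kept genes higher (47.6%) and 3193 lower (52.4%), 206 with no overlap above (3.38%) and 258 below (4.23%), and 687 at an unadjusted p under 0.05 (11.3%). The share higher varied with signal. In bins 5 to 9 of the 10 ordered by signal, 40.4% to 45.2% of probe sets were higher, and 46.2% to 48.1% after quantile normalization. Lists of moderately bright genes that were mostly lower stand beside that share.

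Genes of the extracellular matrix were mostly lower at 6 than at 3 µg/kg. Of 46 measured structural matrix genes, 33 were lower and 13 higher, with a median log2 difference of -0.12; in 9 all arrays at 6 µg/kg lay below those at 3 µg/kg and in 1 above. Bgn, the small proteoglycan biglycan, had 4488.1, 4908.3, 4964.2 and 4935.3 at 6 µg/kg, against 5407.1, 6819.4, 6950.7 and 7077.0 at 3 µg/kg (log2 difference -0.43, SE 0.12; limma adjusted p = 0.176). Controls averaged 4990.0 ± 650.9 (SD, n = 8), close to the higher dose. Col4a5, a basement membrane collagen, had 431.2, 406.6, 359.9 and 343.8 at 6 µg/kg, against 543.5, 551.5, 651.1 and 591.1 at 3 µg/kg (log2 difference -0.56, SE 0.14). Its controls, at 539 ± 94.5, were close to the lower dose instead. Tnxb, the matrix glycoprotein tenascin-X, differed by -0.94 (SE 0.26) and Col5a2, a fibrillar collagen chain, by -0.35 (SE 0.10), both with no overlap. The exceptions included Col1a2, at a log2 difference of 0.32, Sparc at 0.38 and Col12a1 at 0.57. The mean over the list, centred on all arrays, was -0.11, 0.06, -0.10 and -0.07 at 6 µg/kg, against -0.03, 0.17, 0.08 and 0.06 at 3 µg/kg, so the doses overlapped at the level of the list.

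Genes of mitochondrial respiration were mostly higher at 6 µg/kg. Of 53 measured genes of oxidative phosphorylation and the citric acid cycle, 42 were higher at 6 µg/kg and 11 lower, with a median of 0.14; in 9 all arrays at 6 µg/kg lay above those at 3 µg/kg and in 0 below. Quantile normalization gave 38 higher and 15 lower with a median of 0.08. Atp5a1, the catalytic-core α subunit of ATP synthase, had 13843.2, 13965.5, 15597.9 and 13600.4 at 6 µg/kg, against 11916.1, 11929.8, 12594.7 and 12758.8 at 3 µg/kg (log2 difference 0.21, SE 0.07; limma adjusted p = 0.241). Uqcrb, a subunit of complex III, had 6533.3, 6251.0, 7897.2 and 7580.6 at 6 µg/kg, against 5058.0, 6116.2, 6115.6 and 5035.3 at 3 µg/kg. In both genes the doses did not overlap. Cox7b, a subunit of cytochrome oxidase, differed by 0.48 (SE 0.15) with array 4 at 6 µg/kg (6118.9) inside the range of the lower dose. The centred mean of the list was 0.02, 0.01, 0.15 and 0.10 at 6 µg/kg, against -0.01, -0.12, -0.06 and -0.05 at 3 µg/kg. The 4 higher-dose arrays were above the 4 lower-dose arrays, narrowly so for array 2 of the higher and array 1 of the lower, and the controls spanned -0.04 to 0.22.

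The very brightest probe sets were mostly higher at 6 µg/kg, which touches these lists. Of the 100 brightest probe sets, 91 were higher, with a median of 0.14, and after quantile normalization 50 were higher, with a median of 0.00. Bright genes in general did not share this. In the brightest of the 10 bins ordered by signal 56.5% were higher (median 0.03), and in the next brightest bin 41.6% (median -0.03). Sarcomere genes are among the brightest on the array: 17 of 23 were higher, with a median of 0.14, but under quantile normalization 10 of 23 were higher and the median was -0.01, so their direction depended on the scaling. Myl2, the ventricular regulatory light chain, had 22988.4 to 29544.4 at 6 µg/kg, against 19269.1 to 21669.5 at 3 µg/kg. Ankrd1, a stress-responsive titin-binding protein, differed by 0.33 (SE 0.10; limma adjusted p = 0.184), and slow troponin I, Tnni1, by 0.30. For Myh7, the slow myosin heavy chain, the difference of 0.19 turned to -0.04 after quantile normalization, and a second, dimmer probe set was lower, at -0.46 (SE 0.37), with overlap. For Myh6, the fast chain, it was 0.15 (SE 0.09).

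The ribosomal protein genes, likewise bright, were higher in 18 of 22, with a median of 0.12 (14 of 22 and 0.04 under quantile normalization). Rpl41 differed by 0.37 and Rps19 went against the others at -0.52. The natriuretic peptide genes, markers of cardiac wall stress, did not separate the doses. Nppa had 5290.7, 4993.7, 6260.8 and 5466.7 at 6 µg/kg, against 6320.5, 5409.0, 5324.6 and 5539.1 at 3 µg/kg. Nppb differed by 0.20 (SE 0.15), and array 4 at 6 µg/kg was the highest of the 8, at 8793.6. Without that array the Nppb difference was -0.004.

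Genes of fatty acid oxidation were split, 12 higher and 11 lower with a median of 0.10 that became 0.01 under quantile normalization. Lpl, the lipase that releases fatty acids from lipoproteins, had 3672.4 to 4851.7 at 6 µg/kg, against 2941.9 to 3618.6 at 3 µg/kg, with no overlap (log2 difference 0.30, SE 0.11). Of 18 glycolysis genes 10 were higher, with a median of 0.04 (8 of 18 and -0.01 under quantile normalization). Pgk1, phosphoglycerate kinase, was the member with no overlap (0.28, SE 0.09).

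**Figure D4:**
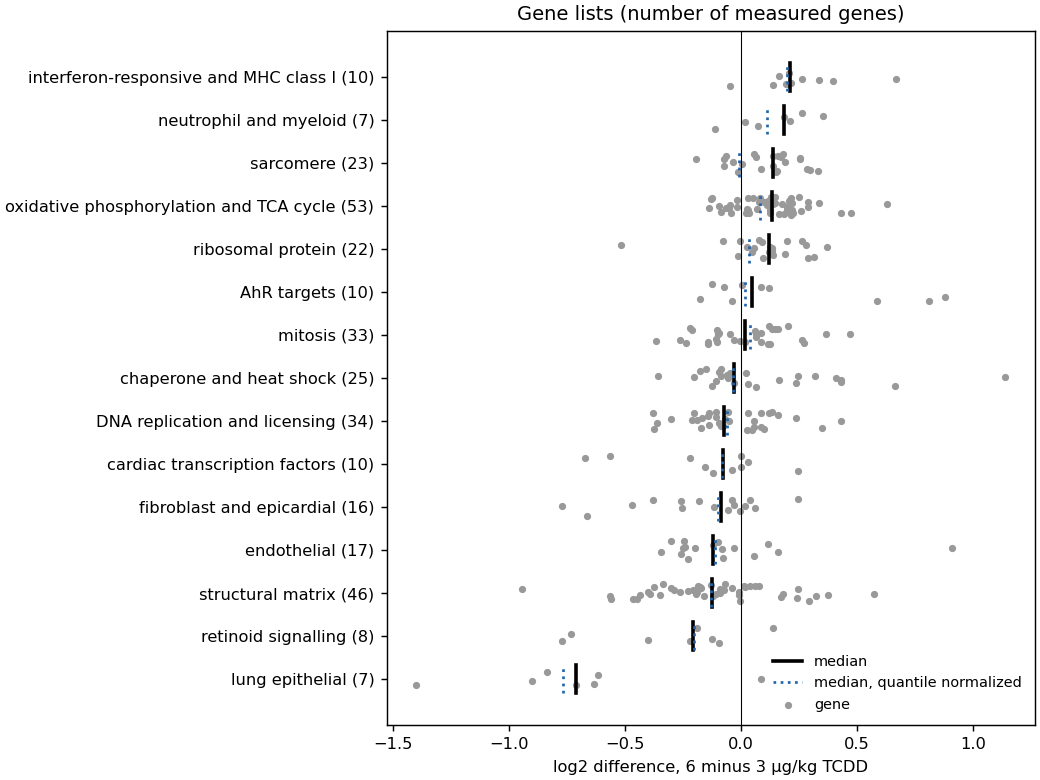
Log2 difference of 6 minus 3 µg/kg (horizontal axis) for each measured gene of 15 lists (grey points), with the median as scaled (black bar) and after quantile normalization (dotted blue). Number of genes is in brackets. Matrix genes sit left of 0 (median -0.12) and respiration genes right of it (0.14) under both scalings, while the sarcomere median of 0.14 turns to -0.01 after quantile normalization and the lung epithelial genes spread widest to the left.

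Among genes of the working myocardium and its wiring, Gja1, which encodes the gap junction protein connexin 43, had 10780.8, 11261.8, 11776.7 and 10369.6 at 6 µg/kg, against 7753.5, 9294.7, 9581.3 and 9010.5 at 3 µg/kg (log2 difference 0.31, SE 0.09; limma adjusted p = 0.176). It did not overlap between the doses, and its controls ran from 9603.4 to 12108.1. Of 12 calcium cycling and channel genes, 7 were higher and 5 lower, with a median of 0.07.

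Of 10 cardiac transcription factors 7 were lower, with a median of -0.08, which rested on 1 array. The centred mean of the list was 0.01, 0.03, -0.003 and -0.35 at 6 µg/kg, against 0.20, 0.04, 0.01 and 0.02 at 3 µg/kg. Without array 4 at 6 µg/kg, the array with the highest ratio of 3′ to middle β-actin signal, a measure of RNA quality, among the 8 (log2 ratio 1.02), the median was 0.01. The ratio of 3′ to 5′ β-actin signal, another such measure, was the lowest of the 8 in that array (log2 ratio 0.281). Mef2a, a MADS-box activator of muscle genes, had 2348.7, 2277.1, 2226.1 and 1839.6 at 6 µg/kg, against 3593.4, 3927.9, 3874.0 and 2626.1 at 3 µg/kg (log2 difference -0.67, SE 0.19; limma adjusted p = 0.184). Without array 4 at 6 µg/kg the Mef2a difference was -0.59. Tbx2, a T-box repressor of the atrioventricular canal, differed by -0.57 (SE 0.21), also with no overlap, and Hey1, a Notch-responsive repressor, by 0.25 (SE 0.12), with all arrays at 6 µg/kg above those at 3 µg/kg. Nkx2-5, Gata4 and Gata6, core factors of heart formation, differed by -0.04, -0.15 and -0.12.

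The retinoid list, vitamin A metabolism and its receptors, held 7 of 8 genes lower, with a median of -0.21; with no filter on dim genes the median was 0.02. Aldh1a2, the main retinoic acid synthesising enzyme of the embryo and an epicardial gene, had 117.7, 76.8, 147.2 and 40.1 at 6 µg/kg, against 150.0, 207.0, 154.3 and 188.8 at 3 µg/kg (log2 difference -0.77, SE 0.32; limma adjusted p = 0.347). The doses did not overlap, by a narrow margin. Aldh1a1, a related enzyme, differed by -0.73 and the receptor gene Rxra by -0.40, both with overlap.

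Proliferation genes showed no common direction. Of 33 mitosis genes 17 were higher and 16 lower (median 0.02), and of 34 replication genes 14 were higher and 20 lower (median -0.07). Mcm7, a subunit of the replicative helicase, had 867.4, 860.2, 822.5 and 806.2 at 6 µg/kg, against 1178.1, 1026.3, 1024.5 and 1161.8 at 3 µg/kg (log2 difference -0.37, SE 0.09; limma adjusted p = 0.176). Its doses did not overlap, and its controls (931.2 to 1264.3) were at the level of the lower dose. Pola2, a subunit of DNA polymerase α, differed by -0.30 with no overlap, and Mad2l1, a spindle checkpoint gene, by -0.26 with no overlap. Chaperone genes were divided by count, 12 higher and 13 lower (median -0.03), but 5 genes had no overlap above and 2 below. The centred mean of the list had the opposite sign to the median, at 0.07, 0.08, 0.03 and 0.05 at 6 µg/kg against -0.01, -0.08, -0.03 and -0.07 at 3 µg/kg, with no overlap and controls from -0.06 to 0.10. Differences of single members ran from -0.36 to 1.14, so the largest rise was wider than the largest fall. How far the mean rests on the few largest rises was not tested. Beside Hspe1 and Tcp1 stood the endoplasmic reticulum disulphide isomerase gene Pdia4 (0.43, SE 0.14), and Cct2, another chaperonin subunit, differed by 0.66 with overlap. Splicing genes were lower in 19 of 29 (median -0.07), Hnrnpu by -0.44 and Srsf1 by -0.39.

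Whole hearts hold several cell types, and in bulk RNA fewer cells of a type and less RNA per cell cannot be told apart. Endothelial markers were lower in 13 of 17 (median -0.12), among them Nos3 (-0.30), Icam2 (-0.25) and Cldn5 (-0.23), each with overlap. Flt4, the receptor for VEGF-C, was the member with no overlap, at -0.25 (SE 0.13). Pecam1, the endothelial adhesion molecule, ran the other way, with 382.4, 525.1, 377.2 and 346.7 at 6 µg/kg, against 400.3, 79.4, 201.3 and 222.6 at 3 µg/kg. Its difference of 0.91 (SE 0.30; limma adjusted p = 0.251) rested on 3 low arrays at 3 µg/kg, with array 1 of that dose among the higher-dose values. The summed endothelial signal was 18390 to 20450 at 6 µg/kg, against 19010 to 20600 at 3 µg/kg, and overlapped. The centred mean of the list, which weights genes equally, did not overlap, at -0.03, -0.04, -0.02 and -0.13 at 6 µg/kg against 0.08, -0.01, 0.005 and -0.003 at 3 µg/kg, with controls from -0.12 to 0.11.

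Fibroblast and epicardial markers were lower in 12 of 16 (median -0.09). The mesothelial genes Msln and Krt19 differed by -0.47 and -0.66. In both, array 1 at 3 µg/kg lay with the higher-dose arrays and the other 3 lay above: Krt19 had 420.1, 480.2, 438.5 and 569.6 at 6 µg/kg, against 385.1, 1119.5, 958.7 and 828.7 at 3 µg/kg. Smooth muscle genes were lower in 7 of 10 (median -0.08), with Cnn1, the smooth muscle calponin, at -0.55 (SE 0.17).

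No immune marker passed between the doses, and the lists differed in direction and size. Macrophage and leukocyte markers were higher in 7 of 13 (median 0.01), with a summed signal of 5299 to 5722 at 6 µg/kg, 5184 to 5748 at 3 µg/kg and 4176 to 4710 in controls. Neutrophil and myeloid markers were higher in 6 of 7 (median 0.18). S100a8, a calcium-binding protein of neutrophils, had 381.1, 458.3, 373.3 and 369.6 at 6 µg/kg, against 337.4, 352.8, 273.5 and 251.3 at 3 µg/kg, with no overlap (log2 difference 0.36, SE 0.19; limma adjusted p = 0.483). Plac8 differed by 0.21 and S100a9 by 0.27, both with overlap. Cd74, the invariant chain of MHC class II, had 237.7, 278.8, 327.3 and 268.3 at 6 µg/kg, against 274.6, 240.4, 181.8 and 184.3 at 3 µg/kg. Array 1 at 3 µg/kg lay inside the higher-dose range, and the difference of 0.31 did not pass (adjusted p = 0.477). H2-DMa, which loads class II molecules with peptide, went the other way at -0.67 (SE 0.27). Of 3 measured MHC class II genes 2 were lower (median -0.14), 1 of them with no overlap.

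Of 10 interferon-responsive and MHC class I genes, 9 were higher at 6 µg/kg, with a median of 0.21. B2m, the light chain of class I, had 2632.2, 2440.7, 2779.2 and 3242.2 at 6 µg/kg, against 1472.4, 2279.2, 2033.0 and 1285.4 at 3 µg/kg (log2 difference 0.67, SE 0.28; limma adjusted p = 0.367). The doses did not overlap, but controls ran from 1154.3 to 3835.1, wider than both doses together. The summed signal of the list was 5979 to 7159 at 6 µg/kg, against 4416 to 5589 at 3 µg/kg and 4123 to 7493 in controls. The centred mean of the list, which weights genes equally, overlapped between the doses. It was 0.03, 0.27, 0.38 and 0.27 at 6 µg/kg, against -0.02, 0.06, 0.004 and -0.09 at 3 µg/kg, with controls from -0.31 to 0.19.

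Mast cell markers were lower in 4 of 5 (median -0.20). Cma1, the mast cell chymase, had 158.4, 192.6, 201.9 and 223.1 at 6 µg/kg, against 148.3, 288.1, 265.4 and 303.4 at 3 µg/kg, with controls from 299.5 to 542.0. Array 1 at 3 µg/kg was the lowest of the 8, and the difference between the doses was -0.29 (SE 0.19; limma adjusted p = 0.575). Further Cma1 probe sets, too dim to be kept, went the other way, at 0.42 and 0.11 (exact permutation p = 0.286 and 0.629). They averaged 26.2 and 23.1 at 6 µg/kg, against 9.4 and 18.6 at 3 µg/kg. Hdc, the histamine-forming enzyme, and Cpa3, a mast cell protease, differed by -0.26 and -0.20.

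Markers of lung, a neighbouring organ, varied most within the doses. Of 7 measured lung epithelial genes 6 were lower at 6 µg/kg, with a median of -0.71 and none past an unadjusted p of 0.05. Sftpc, surfactant protein C, had 134.0, 357.9, 2366.8 and 290.6 at 6 µg/kg, against 134.5, 1498.1, 2647.1 and 3512.1 at 3 µg/kg. Array 3 at 6 µg/kg was high and array 1 at 3 µg/kg low, so the doses overlapped. The summed signal of the list was 1162 to 5390 at 6 µg/kg, 1169 to 6687 at 3 µg/kg and 837 to 4122 in controls, and no member was at 0. Array 1 at 3 µg/kg, low in lung markers, was also the array at which Krt19, Msln and Cma1 lay with the higher dose. Array 3 at 6 µg/kg, high in lung markers, lay among the other arrays of its dose for Krt19 and Cma1. With the lung score as a covariate, an alternative chosen after seeing the data, 3 probe sets passed: Igf2bp1, Ints9 and Kcnj5. The part of lung markers in the other differences was not tested.

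**Figure D5:**
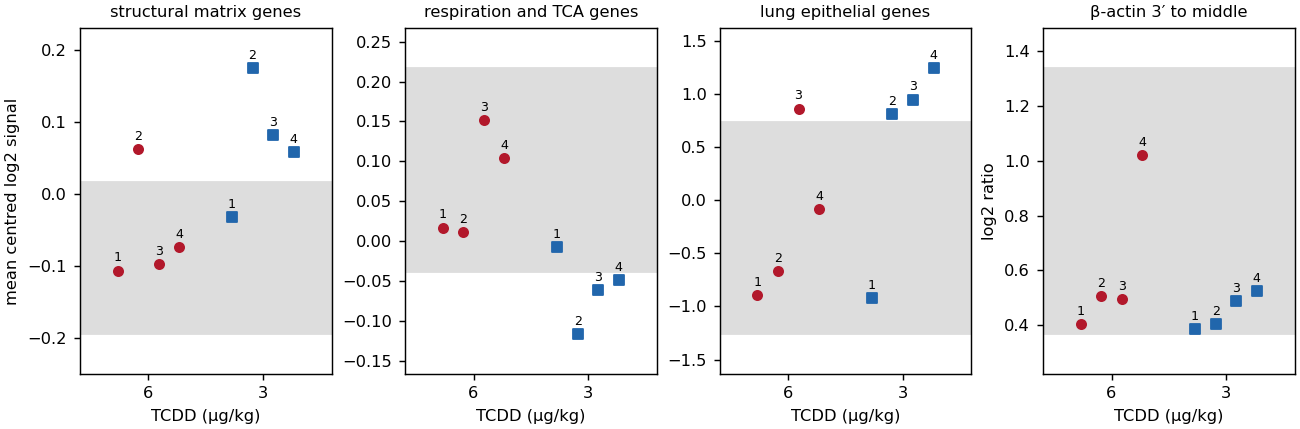
Per-array values at 6 µg/kg (red circles) and 3 µg/kg (blue squares), numbered by array, with the control range in grey: mean centred log2 signal of the structural matrix, respiration and lung epithelial lists, and the log2 ratio of β-actin 3′ to middle probe sets. Array 1 at 3 µg/kg is the lowest of its dose for lung and matrix genes (-0.92 and -0.03), array 3 at 6 µg/kg is the highest of its dose for lung genes (0.86), and array 4 at 6 µg/kg has the highest β-actin ratio of the 8 arrays (1.02), inside the control range.

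Fetal sex was not labelled, and a transcript of the inactive X chromosome differed among the arrays. Xist, the RNA that silences the second X chromosome in females, had 862.4, 573.5, 561.5 and 175.7 at 6 µg/kg, against 547.3, 1194.9, 1091.3 and 1059.4 at 3 µg/kg. The difference of -0.93 had a wide error (SE 1.13; limma adjusted p = 0.790), and became 0.01 with the lung score as a covariate. The Y-linked gene Eif2s3y had 291.0, 477.6, 422.0 and 532.0 at 6 µg/kg, against 461.1, 323.8, 143.4 and 183.3 at 3 µg/kg, so at each dose the array lowest in Xist was the highest in Eif2s3y. Kdm5d, also Y-linked, had 70.8, 73.5, 45.9 and 116.1 at 6 µg/kg, against 46.0, 37.6, 18.9 and 52.7 at 3 µg/kg. The doses overlapped in all 3 genes, and the part of fetal sex in the differences was not tested beyond the Xist covariate. With Xist as a covariate 0 probe sets passed (smallest adjusted p = 0.0534, 1027 at an unadjusted p under 0.05), while the log2 differences were -1.22 for Ank3, -1.04 for Igf2bp1 and -1.41 for Ints9. Of the RNA quality measures, 1 set an array of the comparison apart. In array 4 at 6 µg/kg the log2 ratio of 3′ to middle β-actin signal was 1.02, against 0.39 to 0.52 in the other 7 arrays of the comparison. Of the 8 controls, 3 had similarly high ratios (0.896, 1.19 and 1.34), and the other 5 ran from 0.369 to 0.610. The 3′ to 5′ ratios did not set array 4 at 6 µg/kg apart as high. For β-actin its log2 ratio was 0.281, the lowest of the 8 arrays compared, against 0.323 to 0.454 in the other 7. For Gapdh it was -0.168, inside the range of the other 7 (-0.338 to -0.135). Leaving out array 4 at 6 µg/kg gave the 6 calls stated above.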

How the data were processed

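Total RNA from whole fetal hearts was hybridised to Affymetrix mouse arrays, per the labels' protocols. The deposited intensity values are signals made with MAS5, per the submitters' processing notes, and their 2% trimmed means of 500.28 to 500.341 show that the authors had scaled them. Each array was rescaled to a trimmed mean of 500 and expressed as log2(signal + 32). Probe sets with 1 gene symbol (10833 of 12422) were named from GEO's platform annotation, and 10817 were matched to RefSeq. All 20 arrays entered 1 fit in limma 3.58.1 (R 4.3.3) with an intensity trend, and p-values of the contrast of 6 against 3 µg/kg were adjusted by Benjamini-Hochberg over the 8097 kept probe sets, with a threshold of 0.05. All tests were two-sided. Dim probe sets of receptor genes and Cma1 had an exact permutation test.

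Named genes are up to 12 in each direction that passed, filled by smallest p, with a fixed set of 17 receptor, immune and cardiac genes and up to 4 genes by p from each of 42 lists. Other genes of a list were named after their values were seen. Lists use the brightest probe set of a gene. Members and lists were chosen with earlier results of these data known. Promoter windows are RefSeq's. The fit was tested on simulated data. Alternatives covered normalization, pseudocount, filter, covariates, array weights, a replicate block and leaving out each array. 1 array at 1.5 µg/kg, outside the comparison, has its treatment day written in another form.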

Additional observations from a re-analysis of the deposited data

Results flagged for a closer look

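Of 92 groups of 4 arrays checked, 9 held an array that stood far from the other 3, where chance gives about 1 in 20. At 6 µg/kg, array 2 was the highest for Tcp1 (671.5) and for S100a8 (458.3). Array 4 at 6 µg/kg was the highest in the log2 ratio of 3′ to middle β-actin signal (1.02). At 3 µg/kg, array 1 was the highest for Helb (181.3) and for the second Nqo1 probe set (121.3), and the lowest for Xist (547.3). Array 2 at 3 µg/kg was the lowest for Kcnj5 (127.0), array 3 the highest for Ino80c (156.1) and array 4 the lowest for Smc4 (1856). These are values only, and their causes were not tested.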

How the results depend on the processing

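The count of 3 probe sets past the threshold depended on the fit. It was 0 with no filter on dim probe sets (smallest adjusted p = 0.0581, with 1397 of 12422 at an unadjusted p under 0.05), 0 with Xist as a covariate and 0 when limma's treat asked for a change beyond 1.2-fold. It was 27 in a fit of the 12 TCDD arrays alone (8 higher, 19 lower, all 3 calls among them) and 167 with array weights (68 higher, 99 lower, all 3 among them), which gave array 4 at 6 µg/kg the lowest weight (0.435). Leaving out arrays gave 0 to 6. The other settings gave 2 to 4. Same-numbered arrays of the doses deviated with correlations of 0.134, -0.085, 0.011 and 0.061, so the numbers do not pair them; the replicate block gave 10 calls (4 higher, 6 lower, Ank3 and Igf2bp1 among them). With no filter, 549 of 12422 probe sets lay wholly above and 362 wholly below, against 290 and 334 of the 8097 kept. Ank3 passed in 12 of 23 alternatives, Igf2bp1 in 13 of 23, Ints9 in 9 of 22 and Klf5 in 5 of 22. Small differences reversed for Nqo1 (-0.027 and -0.072 on its 2 probe sets) and Myh7 (-0.044) under quantile normalization. The Xist difference of -0.93 became 0.012 with the lung score as a covariate. Leaving out arrays turned the direction of Nqo1 (-0.112 to 0.189, and on the second probe set -0.021 to 0.053), Tiparp (-0.206 to 0.181), Nppa (-0.102 to 0.016) and Nppb (-0.0041 to 0.307), all of which overlapped between the doses; the cause was not tested. Of 716 list medians recomputed, 29 moved by more than the spread between arrays. Dim genes, such as Ints9, limit what the arrays can show.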
